A study of Drosophila melanogaster with 12 samples.

Results

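Peaks of hypophosphorylated RNA polymerase II (Pol II) in siAGO2 cells were set against those in dsLaminB cells, to ask which features of Pol II occupancy were particular to each depletion. The members were the 4 immunoprecipitated libraries whose titles name one of the knockdowns, of 6 immunoprecipitated libraries and 12 samples in the series. Their lists held 16125 of the 27691 deposited peaks. The mock libraries were used only as a side value.

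All libraries came from Kc167, an established female Drosophila line of embryonic origin, 3 days after transfection, and were made with the antibody 8WG16. The siAGO2 cells had received 100 pmol of a small interfering RNA against AGO2, and the dsLaminB cells 2 ug of a long double-stranded RNA against LaminB. Mock cells were transfected without RNA. There were 2 libraries in each group, called replicates 1 and 2, and each knockdown used a single reagent. The reagents were of different kinds, so effects of the RNA itself and effects of depletion cannot be told apart. The labels do not say that replicates came from separate cultures, so spreads and p-values refer to these libraries and may be technical.

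Pol II is recruited to a promoter with a poorly phosphorylated C-terminal tail, and often pauses just downstream of the transcription start site (TSS). The tail is phosphorylated as transcription proceeds. The study used 8WG16, which detects the hypophosphorylated tail, to examine total Pol II, and described this form as initiating. AGO2 is the Argonaute protein of the RNA interference pathway in flies and is also found at promoters and insulators. LaminB, the product of Lam, is the B-type lamin beneath the inner nuclear membrane, where many silent genes are held. RNA interference acts on the messenger RNA, so a Pol II peak at AGO2 or Lam does not measure depletion.

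The lists held 4089 and 5381 peaks in siAGO2, against 2531 and 4124 in dsLaminB. The mean difference of 1407.5 peaks (pooled SD 1025.5, two-sided exact permutation p = 0.667) was not distinguishable from the spread between replicates. It ran between 611 peaks without dsLaminB replicate 1 and 2204 peaks without dsLaminB replicate 2, and was 761.5 peaks without siAGO2 replicate 2. The lists hold no read numbers, so depth is unknown, and a longer list cannot be told apart from a deeper library. Replicate 1 of siAGO2 and replicate 2 of dsLaminB had nearly the same list length, and this pair is given beside the results on width. Kc167 is described as hemocyte-like. Of 14 hemocyte markers, 12 and 11 had a TSS peak in siAGO2 libraries, against 10 and 10 in dsLaminB libraries. Of all 18277 genes, 5338 and 6796 had one in siAGO2, against 3088 and 5090 in dsLaminB. The counts for the other marker lists were 4 and 5 in siAGO2, against 3 and 4 in dsLaminB, of 9 epithelium and gut markers, and 2 and 3 against 2 and 3 of 10 muscle markers. They were 1 and 1 against 2 and 1 of 10 neuron markers, and 1 and 1 against 0 and 0 of 8 germline markers. In dsLaminB replicate 1, the 3 strongest peaks lay at CG32795, at w (the white eye-colour gene) and inside su(Hw), with a −log10 q of 200 or more, against 77.9 for the next peak, at Gmap.

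Peaks of the 4 lists merged into 5754 sites. Of these, 2314 were occupied in all 4 libraries and are called common sites, and each was also in both mock lists. A protein-coding TSS lay within 500 bp of 2224 of them (96.1%). At each common site the libraries were compared by percentile rank. The percentile orders the 2314 sites of a library by the −log10 q of the deposited peak, from near 0 for the weakest to 100 for the strongest. Ranks carry no absolute level, so a site can gain rank only where others lose it.

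The promoters of 3 genes with large differences between the knockdowns are shown first, because the results below refer to them. The 300 bases run from 250 before to 50 after the TSS nearest the site, in the direction of transcription, on dm6 and read from the RefSeq copy of that assembly. They are betaTub97EF (chr3R:27988335-27988634, minus strand), which ranked higher in siAGO2, Eip63F-1 (chr3L:3925553-3925852, minus strand), which ranked higher in dsLaminB, and Hsp26 (chr3L:9377326-9377625, minus strand), which was wider in siAGO2. Capitals mark matches to TATCGATA or GAGAG on either strand, to TATAAA between 40 and 20 bp before the TSS, and to TCAGT within 10 bp of the TSS.
betaTub97EF: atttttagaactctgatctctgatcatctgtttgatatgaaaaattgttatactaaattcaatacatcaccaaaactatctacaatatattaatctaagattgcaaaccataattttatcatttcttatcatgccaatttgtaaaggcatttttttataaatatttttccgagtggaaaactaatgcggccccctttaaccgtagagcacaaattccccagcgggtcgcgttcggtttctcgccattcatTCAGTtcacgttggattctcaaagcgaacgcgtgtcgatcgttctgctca
Eip63F-1: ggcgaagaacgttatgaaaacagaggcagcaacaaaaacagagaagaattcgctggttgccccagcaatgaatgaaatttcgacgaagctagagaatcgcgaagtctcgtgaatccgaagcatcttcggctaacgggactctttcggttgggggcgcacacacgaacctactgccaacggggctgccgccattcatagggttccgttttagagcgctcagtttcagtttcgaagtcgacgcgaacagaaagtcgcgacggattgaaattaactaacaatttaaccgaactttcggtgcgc
Hsp26: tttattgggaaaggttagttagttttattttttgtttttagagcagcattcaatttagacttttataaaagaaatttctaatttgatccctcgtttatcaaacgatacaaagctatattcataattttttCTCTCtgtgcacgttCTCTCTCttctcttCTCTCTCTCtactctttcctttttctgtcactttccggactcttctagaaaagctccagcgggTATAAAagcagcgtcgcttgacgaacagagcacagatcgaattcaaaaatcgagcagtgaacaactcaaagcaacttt
The betaTub97EF promoter held TCAGT at the start site. Hsp26 held TATAAA and several runs of GAGAG on the opposite strand, and TATCGATA was in none of the 3 windows. Eip63F-1 held none of the 4 motifs at the positions searched. TCAGT does occur in its sequence, but upstream of the 10 bp window, and is not marked. GAGAG is the core of the sites bound by GAGA factor, TATCGATA is the motif of DREF, and TATAAA and TCAGT are core promoter elements. No motif contains another.

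The order of the common sites was much the same in all 4 libraries. The correlation of percentile ranks across the 2314 sites was 0.856 between the siAGO2 replicates and 0.9 between the dsLaminB replicates. Between knockdowns it ran between 0.829 and 0.904, and the highest value of all 6 pairs joined siAGO2 replicate 2 with dsLaminB replicate 2. Sites are not independent replicates and share peak caller and mappability, so these are descriptions. Among the top 100 peaks of each list, 31% were shared by the siAGO2 replicates and 49% by the dsLaminB replicates. Replicate 2 of siAGO2 shared 55% and 57% of its top 100 with the dsLaminB libraries. Replicate 1 of siAGO2 shared 20% and 32% with them. Among the top 2500 the shares were closer, and siAGO2 replicate 2 shared 86.9% with siAGO2 replicate 1, against 83.6% and 86.8% with the dsLaminB libraries.

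Named genes illustrate the tops of the lists. Svil, a villin family gene, ranked 5 and 6 in siAGO2 and 10 in dsLaminB replicate 2. The strongest peaks were at Cip4 and mRpS6 in siAGO2 replicate 1, at Cipc in siAGO2 replicate 2 and at Ptp10D in dsLaminB replicate 2. InR, the insulin receptor, ranked 4 in siAGO2 replicate 2, and at its common site stood at percentiles 98.96 and 99.87 in siAGO2, against 96.93 and 99.52 in dsLaminB. These genes were chosen after their values were seen.

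No common site passed the test for a rank difference. With limma on normal scores of the ranks and Benjamini-Hochberg adjustment over 2314 sites, 0 sites were higher in siAGO2 and 0 in dsLaminB at an adjusted p under 0.05 (0% each). At an unadjusted p under 0.05 there were 47 sites higher in siAGO2 (2.03%) and 68 higher in dsLaminB (2.94%), and the smallest adjusted p was 0.646. The count was also 0 under every alternative fitted, 11 in number, in which the smallest adjusted p ranged between 0.392 and 1.0. The ranks of the groups did not overlap at 766 sites. Both siAGO2 libraries lay above both dsLaminB libraries at 392 sites (16.9% of all common sites) and below them at 374 sites (16.2%). Shares of about this size arise in each direction when 2 libraries are set against 2 at random. They are the background against which the members of each gene list are read. All sites named below were chosen from those that do not overlap, so their separation is a property of the choice.

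The 10 sites with the largest rank differences in each direction are plotted by library, and are protein-coding genes of varied function. The largest difference was at betaTub97EF, a beta-tubulin gene. Its percentile was 87.0 and 81.4 in siAGO2, against 19.5 and 58.2 in dsLaminB. Both siAGO2 libraries were in the upper part of sites and dsLaminB replicate 1 was far below them. The difference of 45.3 points corresponded to 1.33 normal-score units (SE 0.398, limma adjusted p = 0.925). C1GalTA, which starts the core of mucin-type O-glycans, stood at 61.8 and 44.5 in siAGO2, against 16.4 and 21.0 in dsLaminB. AnxB10, an annexin, stood at 53.5 and 39.2 in siAGO2, against 6.40 and 21.5 in dsLaminB. The dsLaminB libraries thus placed both genes in the lower part of the order. The checkpoint kinase gene lok, the fly Chk2, had 55.7 and 38.9 in siAGO2, against 17.8 and 16.9 in dsLaminB.

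The small heat shock genes Hsp27 and Hsp23 share a site that stood at 76.0 and 79.3 in siAGO2, against 48.6 and 49.5 in dsLaminB. Within each knockdown the replicates were within 4 points of each other. In mock the site stood at 95.3 and 99.96, above both knockdowns. The other sites on the siAGO2 side were at CG44085, EDTP, fs(2)ltoPP43, CG13506 and CG1572, with differences between 29.4 and 35.8 points.

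Hsp83, the fly Hsp90 gene, went the other way. It stood at 27.6 and 46.2 in siAGO2, against 79.9 and 71.0 in dsLaminB, and no library of one knockdown reached the other. The smallest p-values of all sites belonged to hlk, Fum1 and Eip63F-1. The hlk site stood at 3.20 and 4.19 in siAGO2, against 42.1 and 40.4 in dsLaminB. Fum1, which encodes fumarase, shares its promoter peak with ND-ASHI, a subunit gene of respiratory complex I. That site stood at 3.46 and 2.38 in siAGO2, against 45.4 and 33.4 in dsLaminB. The ecdysone-induced calcium-binding gene Eip63F-1 stood at 3.67 and 3.93 in siAGO2, against 45.0 and 36.4 in dsLaminB. Both siAGO2 libraries placed these sites among the weakest common sites and both dsLaminB libraries placed them near the middle. The limma adjusted p was 0.646 for each of these 3 sites. In mock, hlk stood at 16.3 and 17.3, Fum1 at 14.2 and 13.6, and Eip63F-1 at 2.16 and 14.3.

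On the same side, eEF1alpha1, the main translation elongation factor gene, stood at 59.0 and 20.5 in siAGO2, against 80.0 and 66.4 in dsLaminB. The cell adhesion gene klg stood at 7.48 and 41.7 in siAGO2, against 66.8 and 66.2 in dsLaminB. The siAGO2 replicates differed by more than 30 points at both genes. CG3823, CG32647, CG3651 and CG31522 completed the list of sites ranked higher in dsLaminB.

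**Figure D1:**
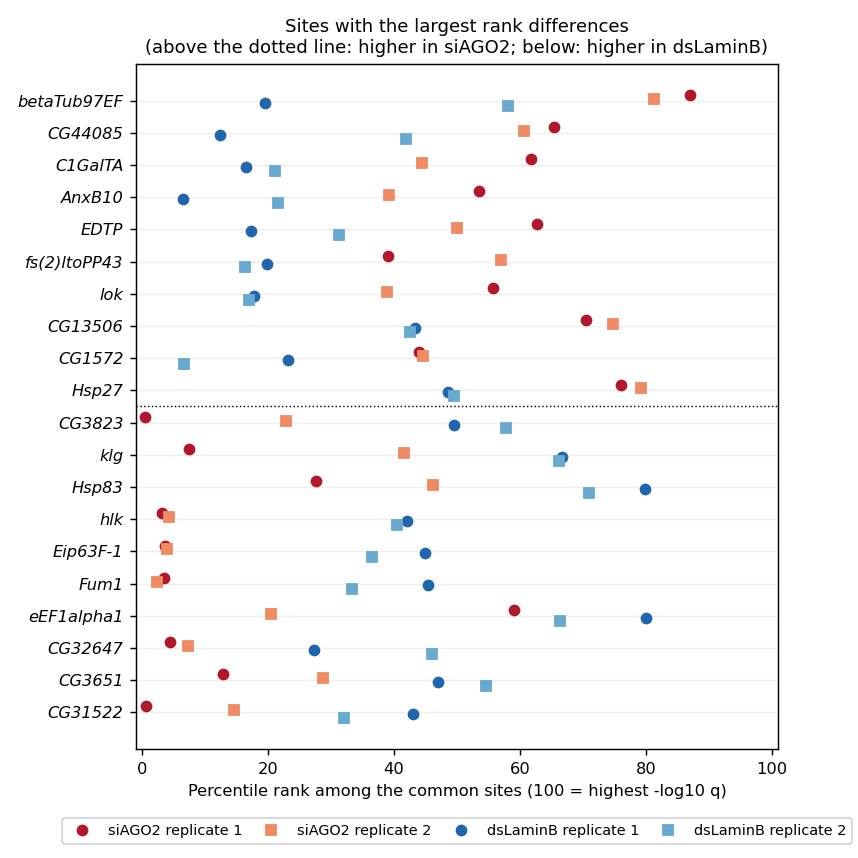
Percentile rank of the 20 common sites with the largest rank differences in the 2 siAGO2 and 2 dsLaminB libraries, by protein-coding gene (100 is the highest −log10 q of 2314 sites). Each point is 1 library. Replicates of each knockdown lie within 4 points of each other at Hsp27 and hlk, and far apart at betaTub97EF in dsLaminB and at eEF1alpha1 and klg in siAGO2.

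Genes were then read by list, with the differences in percentile given as siAGO2 minus dsLaminB. Over all common sites the median difference was 0.24 points. No member of any list passed limma at an adjusted p under 0.05, so the lists are described by counts and medians, and nothing is called particular to them. Only some of the 41 lists are described, and the first ones are among those with the most uneven splits.

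Genes of the vacuolar ATPase, the proton pump that acidifies lysosomes and endosomes, lay mostly on the siAGO2 side. Of 12 sites, 6 (50%) lay higher in both siAGO2 libraries and 0 in both dsLaminB libraries, against 16.9% and 16.2% of all common sites. The median difference was 6.37 points. Vha36-1 stood at 51.0 and 57.5 in siAGO2, against 21.8 and 38.7 in dsLaminB. VhaSFD stood at 58.9 and 55.5 in siAGO2, against 22.6 and 52.5 in dsLaminB. Both encode subunits of the peripheral part of the pump, and in dsLaminB both had their lowest value in replicate 1. The widest differences the other way were at Vha68-2 (58.5 and 78.7 in siAGO2, against 77.8 and 82.3 in dsLaminB) and Vha100-2, where ranks overlapped. Without each library in turn the median ran between 5.05 and 10.98 points.

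Small nuclear RNA (snRNA) genes, mostly of the spliceosome, lay on the other side. These are short genes, most of which Pol II transcribes from promoters of their own kind. Of 13 sites, 0 were higher in both siAGO2 libraries and 6 (46.2%) in both dsLaminB libraries, against 16.9% and 16.2% of all common sites. The median of the list was −5.64 points. The site of snRNA:U4:38AB stood at 17.2 and 3.63 in siAGO2, against 41.0 and 31.5 in dsLaminB. snRNA:U1:82Eb stood at 72.8 and 43.2 in siAGO2, against 81.6 and 84.4 in dsLaminB. At snRNA:U4:39B and snRNA:U7 the differences were 1.99 and 1.73 points and the ranks overlapped. The copies of U1, U2, U4 and U5 are near-identical in sequence and reads that map to several were filtered out before peak calling, so the values of single copies are uncertain. Without each library the median ran between −10.998 and −6.87 points.

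The JAK-STAT pathway relays cytokine signals and acts in blood cells. Of its 12 sites, 0 were higher in both siAGO2 libraries and 6 (50%) in both dsLaminB libraries, against 16.9% and 16.2% of all common sites. The median of the list was −3.91 points, and between −7.66 and −2.09 without each library. The receptor antagonist gene et stood at 45.7 and 52.2 in siAGO2, against 75.1 and 77.8 in dsLaminB. The suppressor gene Socs16D stood at 22.0 and 11.2 in siAGO2, against 33.8 and 37.2 in dsLaminB. Stat92E, the transcription factor of the pathway, and Socs36E, a feedback inhibitor, had positive differences of 9.51 and 2.14 points, with overlapping ranks. Of the 6 sites higher in dsLaminB, et, Socs16D, dome and hop are on the X chromosome.

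Basement membrane genes, which fly hemocytes are known to express, also lay on the dsLaminB side. Of 14 sites, 0 were higher in both siAGO2 libraries and 5 (35.7%) in both dsLaminB libraries, against 16.9% and 16.2% of all common sites. The median of the list was −5.05 points. Pxn, the extracellular peroxidase peroxidasin, stood at 25.2 and 25.5 in siAGO2, against 56.0 and 45.8 in dsLaminB. Mp, a collagen of the type XV and XVIII family, stood at 8.82 and 54.3 in siAGO2, against 68.4 and 40.9 in dsLaminB, and its ranks overlapped. The collagen-modifying genes Plod and PH4alphaEFB had positive differences of 12.5 and 7.71 points with overlapping ranks. The median ran between −6.55 and −3.31 points without each library, and was −1.61 points when peaks were ranked by fold enrichment. Hemocyte markers, which share members with this list, had 0 of 11 sites higher in both siAGO2 libraries and 4 (36.4%) in both dsLaminB libraries. Their median was −7.00 points, and −8.17 to −3.61 points without each library. The quartiles of the hemocyte markers were −17.5 and 2.50 points, so some of them went the other way. Among them Hml, the clotting protein hemolectin, stood at 64.1 and 26.8 in siAGO2, against 74.2 and 68.8 in dsLaminB.

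**Figure D2:**
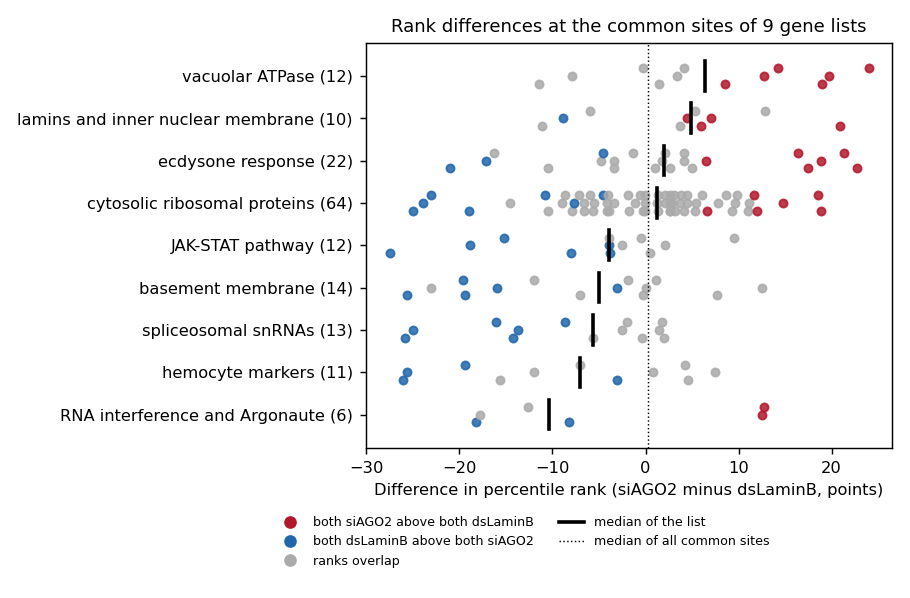
Difference in percentile rank (siAGO2 minus dsLaminB, in points) at the common sites of 9 of the 41 gene lists, with the number of sites in brackets. Each point is 1 site, coloured by whether the libraries of the knockdowns overlap, the bar is the median of the list and the dotted line the median of all common sites (0.24). Without overlap between the knockdowns, the vacuolar ATPase has 6 sites higher in siAGO2 and 0 higher in dsLaminB, and the JAK-STAT, basement membrane, snRNA and hemocyte lists have 0 non-overlapping sites on the siAGO2 side. Over all common sites, 16.9% are higher in siAGO2 without overlap and 16.2% in dsLaminB.

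The lists nearest to the depleted proteins gave few sites. Over all common sites, 16.9% were higher in both siAGO2 libraries and 16.2% in both dsLaminB libraries. Of 6 common sites of RNA interference genes, 2 were higher in both siAGO2 libraries (33.3%) and 2 in both dsLaminB libraries (33.3%). Their median of −10.4 points ran between −10.8 and −1.19 points without each library. The microRNA Argonaute AGO1 stood at 57.1 and 49.1 in siAGO2, against 33.6 and 47.2 in dsLaminB. Hen1, which methylates small RNAs, stood at 62.9 and 62.8 in siAGO2, against 46.5 and 54.1 in dsLaminB. The helicase gene spn-E stood at 10.2 and 6.87 in siAGO2, against 26.1 and 27.4 in dsLaminB. Tudor-SN stood at 13.3 and 14.7 in siAGO2, against 54.2 and 9.46 in dsLaminB, so that its difference of −17.8 points came from dsLaminB replicate 1. Among lamins and proteins of the inner nuclear membrane, 4 of 10 sites (40%) were higher in both siAGO2 libraries and 1 (10%) in both dsLaminB libraries. Only 6 genes of this list had a TSS peak in all 4 libraries, so the number of sites is not a number of genes. The chromatin-bridging gene baf stood at 57.1 and 47.4 in siAGO2, against 28.9 and 33.9 in dsLaminB. The SUN-domain gene koi stood at 74.2 and 26.7 in siAGO2, against 70.3 and 52.9 in dsLaminB. The median of that list, 4.89 points, changed to −0.83 points without siAGO2 replicate 1.

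At AGO2 itself the percentile was 9.98 and 30.4 in siAGO2, against 21.2 and 44.3 in dsLaminB, and the ranks overlapped. The peak at Lam had rank 3795 and 4406 in the siAGO2 lists, against no peak and rank 3740 in the dsLaminB lists, so Lam is no common site. Of the loci the study displays, vri, a clock and ecdysone-responsive gene, stood at 32.8 and 39.8 in siAGO2, against 8.25 and 21.6 in dsLaminB. The difference of 21.3 points did not overlap between groups (limma adjusted p = 0.925). The JAK-STAT inhibitor Socs36E, the signalling adaptor gene Traf4 and the BMP-binding gene cv-2 had ranks among the first 900 in each list. Socs36E ranked 348 and 66 in siAGO2, against 257 and 259 in dsLaminB. Traf4 ranked 834 and 496 in siAGO2, against 757 and 531 in dsLaminB. For cv-2 the ranks were 354 and 215 in siAGO2, against 116 and 129 in dsLaminB. These ranks are counted in lists of different length. Among the common sites, cv-2 stood at percentiles 84.7 and 90.8 in siAGO2, against 95.2 and 94.5 in dsLaminB, without overlap. betaTub60D ranked 255 and 8 in siAGO2, against 109 and 174 in dsLaminB. The Hox gene Abd-B had no TSS peak and rank 3725 in siAGO2, against ranks 2299 and 2506 in dsLaminB.

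Ecdysone-responsive genes lay on both sides, with 6 of 22 sites (27.3%) higher in both siAGO2 libraries and 3 (13.6%) in both dsLaminB libraries. A gene can hold several sites, and 17 genes of this list had a TSS peak in all 4 libraries. Over all common sites these shares were 16.9% and 16.2%. Besides vri, Ldh, the lactate dehydrogenase gene, stood at 53.4 and 50.3 in siAGO2, against 24.8 and 33.4 in dsLaminB. At a promoter of EcR, the hormone receptor, the values were 6.18 and 15.3 in siAGO2, against 29.6 and 33.9 in dsLaminB. For ftz-f1 they were 43.3 and 69.4 in siAGO2, against 73.1 and 74.0 in dsLaminB. The partner receptor gene usp, named after its values were seen, stood at 22.0 and 19.1 in siAGO2, against 1.34 and 4.80 in dsLaminB. The receptor genes EcR and usp thus lay on opposite sides.

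Heat shock genes were also found on both sides, with shares near those of all common sites. Of 14 sites, 3 were higher in both siAGO2 libraries (21.4%) and 2 in both dsLaminB libraries (14.3%). Over all common sites these shares were 16.9% and 16.2%. Beside Hsp27 and Hsp83, Hsp68 stood at 40.5 and 24.9 in siAGO2, against 15.6 and 8.04 in dsLaminB. Hsp70Ba stood at 9.12 and 39.2 in siAGO2, against 75.8 and 25.6 in dsLaminB, where dsLaminB replicate 1 alone was high. Copies of Hsp70 are near-identical, so this value is uncertain.

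Cytosolic ribosomal protein genes seldom separated the knockdowns by rank. Of 64 sites, 6 were higher in both siAGO2 libraries and 7 in both dsLaminB libraries, which is 9.38% and 10.9%, against the 16.9% and 16.2% of all common sites. Their median difference of 1.25 points was −6.90 points without siAGO2 replicate 1, −0.77 points without dsLaminB replicate 1, −1.33 points when peaks were ranked by fold enrichment and 7.58 points without siAGO2 replicate 2. RpS20 stood at 36.8 and 32.5 in siAGO2, against 6.61 and 24.8 in dsLaminB. RpL8 stood at 54.9 and 34.1 in siAGO2, against 63.7 and 75.3 in dsLaminB. On the X chromosome, 44 of 433 sites were higher in both siAGO2 libraries (10.2%) and 79 in both dsLaminB libraries (18.2%). On 2R the counts were 95 and 68 of 497 sites. The median of the X, −1.19 points, changed to 0.17 points without siAGO2 replicate 1.

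Both siAGO2 lists had wider peaks than both dsLaminB lists. The median width of a list was 361 and 464 bp in siAGO2, against 300 and 351 bp in dsLaminB. The difference of 87 bp exceeded the pooled SD of 57.5 bp (two-sided exact permutation p = 0.333), and was 35.5 bp without siAGO2 replicate 2 and 138.5 bp without siAGO2 replicate 1. With 4 libraries the permutation test cannot go below p = 0.333, so it could call no difference. At the 2314 common sites the medians were 453 and 604.5 bp in siAGO2, against 304 and 415 bp in dsLaminB, a difference of 169 bp (pooled SD 93.9, exact permutation p = 0.333). In bp, both siAGO2 libraries were wider than both dsLaminB libraries at 1351 sites (58.4%) and narrower at 7 (0.303%). The difference was 92 bp without siAGO2 replicate 2 and 108 bp without dsLaminB replicate 1. The pair of nearly equal list length, siAGO2 replicate 1 and dsLaminB replicate 2, differed by much less than the means, with 453 bp against 415 bp. Peaks covered 1.86 and 3.38 Mb in siAGO2, against 0.918 and 1.81 Mb in dsLaminB.

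In each of the rank classes examined, siAGO2 replicate 2 had the widest peaks, then siAGO2 replicate 1, dsLaminB replicate 2 and dsLaminB replicate 1. Among peaks ranked 1 to 500, the median was 502.5 and 573.5 bp in siAGO2, against 382 and 449 bp in dsLaminB. Among peaks ranked 1501 to 2000 it was 341 and 481.5 bp in siAGO2, against 212 and 317 bp in dsLaminB. The gap between siAGO2 replicate 1 and dsLaminB replicate 2 narrowed from class to class. When the 2531 strongest peaks were taken from each list, 219 and 579 peaks were at least 1000 bp wide in siAGO2, against 64 and 206 in dsLaminB.

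**Figure D3:**
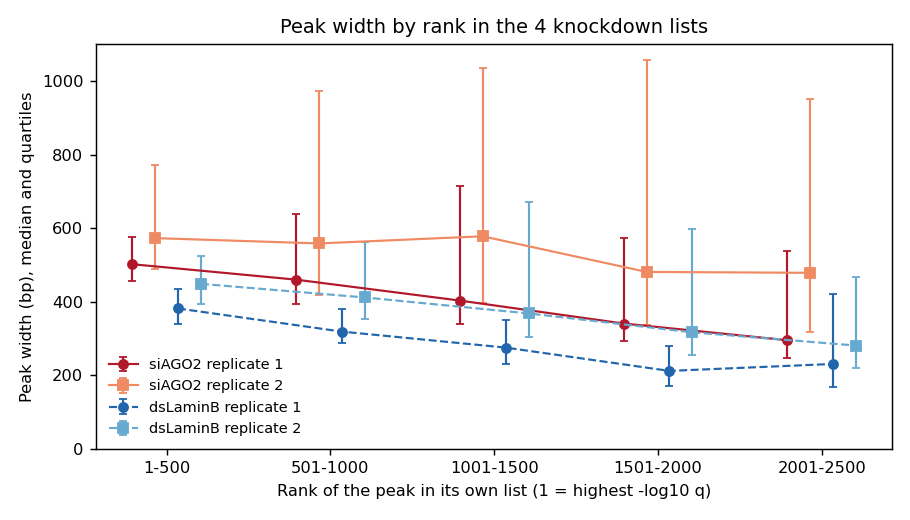
Median width in bp of peaks, with quartiles as bars, by rank in their own list, for the 4 libraries. siAGO2 replicate 2 is widest and dsLaminB replicate 1 narrowest in each bin, and siAGO2 replicate 1 and dsLaminB replicate 2 differ by 53.5 bp in the first bin and by 14.5 bp in the last.

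The extra width lay on both sides of the TSS. Over 2403 TSSs with a peak in all 4 libraries, the median reach into the gene was 269 and 365 bp in siAGO2, against 206 and 254 bp in dsLaminB. The difference of 87 bp exceeded the pooled SD of 53.7 bp (exact permutation p = 0.333), and was 39 bp without siAGO2 replicate 2, 54 bp without dsLaminB replicate 1 and 134.5 bp without siAGO2 replicate 1. The median reach upstream was 181 and 247 bp in siAGO2, against 108 and 156 bp in dsLaminB. At the 466 TSSs with no other gene within 1000 bp, the reach into the gene was 276.5 and 320 bp in siAGO2, against 205.5 and 247.5 bp in dsLaminB. In lists of equal length, 58.8% of shared TSSs were still under a peak 300 bp into the gene in siAGO2 replicate 2. The value there was 36.7% in siAGO2 replicate 1, against 15.2% and 30.9% in dsLaminB.

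**Figure D4:**
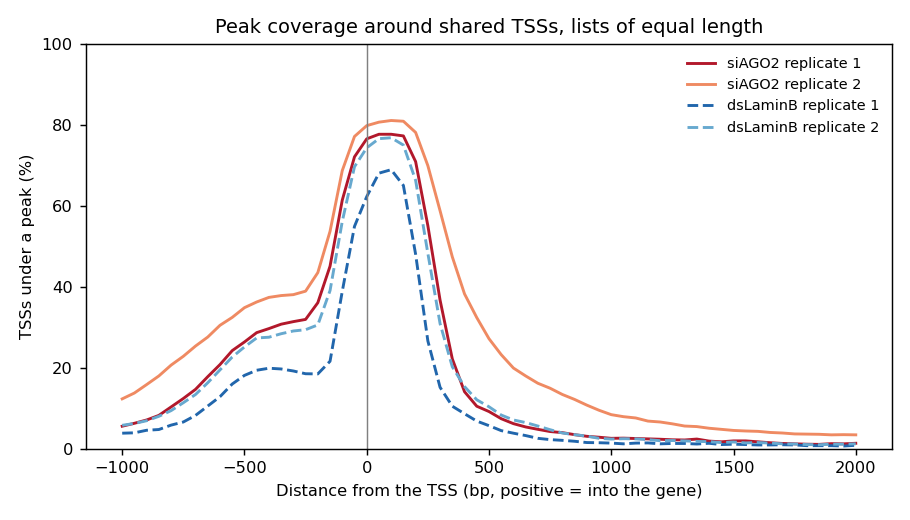
Share of 2206 TSSs under a peak, in percent, by distance from the TSS in bp, for the 2531 strongest peaks of each of the 4 libraries. At 300 bp into the gene the siAGO2 libraries cover 36.7% and 58.8%, against 15.2% and 30.9% in dsLaminB, and siAGO2 replicate 1 runs close to dsLaminB replicate 2.

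To ask whether some sites were wider beyond this general difference, log2 widths were centred on the median of each library. limma called 0 of 2314 sites wider in siAGO2 and 0 wider in dsLaminB (0% each, adjusted p under 0.05). At an unadjusted p under 0.05 there were 73 (3.15%) and 22 (0.951%), and the smallest adjusted p was 0.274. Without centring limma called 0 sites as well, with 133 (5.75%) and 1 (0.0432%) at an unadjusted p under 0.05. Without dsLaminB replicate 1, limma called 2 sites wider in siAGO2 and 1 wider in dsLaminB of 3513. With peaks of a −log10 q of at least 5 it called 1 and 0 of 1532, and the other 8 of 10 alternatives fitted gave 0. Centred widths did not overlap at 240 sites relatively wider in siAGO2 (10.4%) and 575 relatively wider in dsLaminB (24.8%). Relatively wider means relative to the library's own median, and the balance of directions depends on this centring, since 1351 and 7 sites were separated in bp. The median centred log2 difference was 0.68 among the 240 sites and −0.38 among the 575.

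The sites with the largest centred excess in siAGO2 are named by the nearest protein-coding gene, which was under 2000 bp long at 4 of 5. Of the 2224 common sites with a protein-coding TSS, 342 were at genes under 2000 bp. All 5 sites also lay within 500 bp of a TSS of another gene, so the covered width is not that of 1 gene. At nop5, a gene of the small nucleolar ribonucleoprotein, peaks covered 1807 and 3539 bp in siAGO2, against 147 and 726 bp in dsLaminB. At Rpt3, a proteasome ATPase gene, they covered 1038 and 2056 bp in siAGO2, against 147 and 316 bp in dsLaminB. At GstO3 they covered 939 and 1918 bp in siAGO2, against 157 and 278 bp in dsLaminB. In each case both dsLaminB widths were below both siAGO2 widths before centring, although the ranks of these sites overlapped between knockdowns. In mock, where only bases within the site were counted, peaks covered 3091 and 3228 bp at nop5. They covered 1509 and 1458 bp at Rpt3 and 1917 and 1891 bp at GstO3 in mock. At Hsp26, within the cluster of small heat shock genes on 3L, peaks covered 2397 and 3759 bp in siAGO2, against 405 and 572 bp in dsLaminB, and 3777 and 3777 bp in mock. Its centred log2 difference was 2.08 (SE 0.275, limma adjusted p = 0.274). The last of the sites was at mip120, a gene of the Myb complex.

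Fewer base pairs separated the sites that were relatively wider in dsLaminB. At CG32687 peaks covered 271 and 234 bp in siAGO2, against 438 and 437 bp in dsLaminB. At wb, a laminin alpha gene, they covered 298 and 273 bp in siAGO2, against 320 and 882 bp in dsLaminB. The dsLaminB replicates were 1 bp apart at CG32687, whereas at wb replicate 2 alone was wide. At hlk and CG31743 dsLaminB replicate 1 was the wide library, and at CG8892 siAGO2 replicate 1 was the narrow one.

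**Figure D5:**
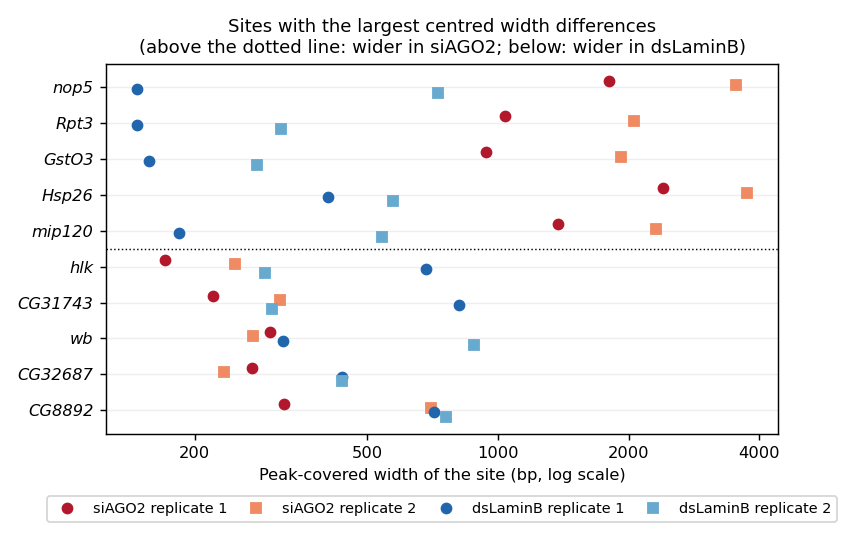
Width covered by peaks, in bp on a log scale, at the 10 common sites with the largest differences in centred width, for the 4 libraries. At Hsp26 and Rpt3 both siAGO2 libraries lie above 1000 bp and both dsLaminB libraries below 600 bp, while the sites below the dotted line stay under 1000 bp in all libraries.

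Centred widths were then read by gene list. Against a median centred log2 difference of −0.09 over all common sites, cytosolic ribosomal protein genes had 0.32, with 11 of 64 sites relatively wider in both siAGO2 libraries (17.2%) and 4 in both dsLaminB libraries (6.25%), against 10.4% and 24.8% of all common sites. At RpS18 peaks covered 499 and 1866 bp in siAGO2, against 147 and 253 bp in dsLaminB. At RpL36 they covered 923 and 1098 bp in siAGO2, against 158 and 337 bp in dsLaminB. The median of this list was −0.05 without dsLaminB replicate 1 and −0.01 without siAGO2 replicate 2, so its direction rested on those libraries. Heat shock genes had a median of 0.44 over 14 sites, and 0.25 to 0.58 without each library. Basement membrane genes had −0.36, with 0 of 14 sites relatively wider in both siAGO2 libraries and 9 in both dsLaminB libraries (64.3%). In bp the medians of that list were 417 and 449 in siAGO2, against 344.5 and 483 in dsLaminB. snRNA genes had −0.41, with 0 of 13 and 9 of 13 (69.2%), and medians of 667 and 715 bp in siAGO2, against 552 and 712 bp in dsLaminB. These 2 lists kept a negative median without each library. RpS18 and RpL36 were chosen after their widths were seen.

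Centred widths by gene arrangement and length are given as descriptions, with no test. Sites with protein-coding TSSs on both strands had a median centred difference of 0.12 over 670 sites, with 104 relatively wider in both siAGO2 libraries (15.5%) and 141 in both dsLaminB libraries (21.0%). Those with TSSs on 1 strand had −0.12 over 1554 sites, with 132 (8.49%) and 399 (25.7%). Sites at genes of 20000 bp or longer had −0.17 over 517 sites, with 34 relatively wider in both siAGO2 libraries (6.58%) and 169 in both dsLaminB libraries (32.7%), although in bp their medians were 445 and 507 in siAGO2, against 319 and 402 in dsLaminB. Sites at genes under 2000 bp had 0.05 over 342 sites, with 48 and 63 relatively wider. Promoters with TATCGATA had 0.07 over 227 sites, against −0.09 over 1997 sites without it.

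The motifs searched above had similar shares among sites ranked higher in either knockdown. Here the windows lay at the TSS that Ensembl marks as canonical for each gene, which may not be the TSS nearest the site. The Eip63F-1 and Hsp26 sequences shown above start from other TSSs. GAGAG was found in 30.2% of 13967 promoters, in 42.4% of those at common sites, in 44.0% of those ranked higher in siAGO2 and in 43.6% of those ranked higher in dsLaminB. TATCGATA was found in 8.94%, 10.2%, 7.55% and 10.2% of the same sets, TATAAA in 7.90%, 3.37%, 3.91% and 3.97%, and TCAGT in 12.6%, 18.3%, 19.8% and 19.8%. A match says only that the letters are in the window.

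Genes with a TSS peak in both libraries of 1 knockdown and in none of the other were counted next. In whole lists, 551 genes (3.01% of 18277) had a TSS peak in both siAGO2 libraries and in neither dsLaminB library, and 2 genes (0.0109%) had the opposite pattern. Of the 551, 537 also had a TSS peak in both mock libraries and 4 in neither. Their median rank was 3543 and 3854 in the siAGO2 lists, against dsLaminB lists of 2531 and 4124 peaks. Of all sites, 32 were missing only from siAGO2 replicate 1 and 1199 only from dsLaminB replicate 1. With the 2531 strongest peaks of each list the counts were 98 (0.536%) and 41 (0.224%), and all of these genes had a TSS peak in both whole mock lists. Of the 98, 79 had a TSS peak in the whole list of dsLaminB replicate 2. The list of dsLaminB replicate 1 holds 2531 peaks and was not cut, so the 98 genes have no TSS peak there by selection. Of the 41, 33 and 41 had a TSS peak in the whole siAGO2 lists.

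The best-ranked of the 98 genes had wide peaks. At lilli, a gene of the super elongation complex family, the TSS peak had ranks 19 and 590 in siAGO2 and a width of 1084 and 1250 bp. The dsLaminB lists had a peak at the same site that covered 329 and 354 bp, without reaching within 500 bp of that TSS. The peaks at CG3919, GstD4 and isoQC were likewise over 1000 bp wide in both siAGO2 libraries. At the cytochrome P450 gene Cyp6a9, ranks were 324 and 649 in siAGO2, against no peak and rank 3002 in dsLaminB. Within the lists of equal length, 17 of the 98 genes had an own peak that overlapped a dsLaminB peak. These peaks had a median width of 1339 bp, against 346.5 bp for the other 81 genes. The other 81 genes can still have a weaker peak in the whole list of dsLaminB replicate 2, where 79 of the 98 genes had a TSS peak.

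The 41 genes of dsLaminB included long genes. The RNA-binding protein gene bru3 had no TSS peak and rank 2710 in siAGO2, against ranks 995 and 1522 in dsLaminB. hlk, Eip63F-1, Fum1 and ND-ASHI followed by rank. Of the 98 genes of siAGO2, 7 (7.14%) were longer than 20000 bp, against 13 of the 41 genes of dsLaminB (31.7%). For comparison, 517 of the 2224 common sites with a protein-coding TSS were at genes of 20000 bp or longer. The median rank was 2178.5 and 2220 for the 98 genes in siAGO2, and 2100 and 2115 for the 41 genes in dsLaminB. The lists were cut at 2531 peaks, so the typical gene of either set lay towards the end of the cut lists. On the X chromosome lay 15 of the 98 and 13 of the 41, beside 433 of the 2314 common sites. GAGAG was found in 25.3% of the promoters of the siAGO2 set and 48.6% of the dsLaminB set. The shares were 26.4% and 13.5% for TATCGATA, 4.40% and 0% for TATAAA, and 13.2% and 24.3% for TCAGT. In the same order of motifs, all promoters had 30.2%, 8.94%, 7.90% and 12.6%, and those at common sites 42.4%, 10.2%, 3.37% and 18.3%. The siAGO2 and dsLaminB sets were chosen by their peaks and the shares were not tested.

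The share of peaks within 1500 bp of a TSS was 97.2% and 94.6% in siAGO2, against 95.4% and 94.0% in dsLaminB. The difference of 1.22 percentage points was below the spread between replicates (exact permutation p = 0.667), and its sign changed to −0.0788 points without siAGO2 replicate 1 and to −0.153 points with peaks of a −log10 q of at least 5.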

How the data were processed

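Chromatin immunoprecipitation of Pol II was analysed from the deposited peak lists of 4 libraries, with mock lists as side values and the 6 inputs entering only as controls of the authors' peak calls. By the submitters' processing notes, the authors trimmed reads with cutadapt 1.10, aligned them to dm6 with Bowtie2, removed duplicates with Picard 2.11.0 and called broad peaks in each library separately with MACS2 2.1.1.20160309. The deposited lists give a fold enrichment (a ratio to local background), −log10 p and −log10 q values, and a score derived from the latter by the authors. Peaks were ranked by −log10 q. Fold enrichment served as an alternative, and score and −log10 p were not used. Depth is unknown and no value was scaled to it. The study's own differential analysis needs reads and was left out.

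Genes and TSSs came from Ensembl release 115, and sequences from the RefSeq copy of the same assembly. The sequence of 1 further promoter is not reported here. Peaks of the 4 lists that touched or overlapped were merged into sites. The width of a site in a library is the length its peaks cover. Normal scores of ranks and centred log2 widths at common sites were fitted with limma 3.58.1 in R 4.3.3, with Benjamini-Hochberg adjustment, and the script was tested on simulated data. Single values were compared by two-sided exact permutation of library labels. A gene had a TSS peak when a peak lay within 500 bp of a TSS.

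Named genes were the targets and loci shown in the study, the 10 sites with the largest non-overlapping rank difference in each direction, the 5 with the largest width difference, the 5 best-ranked protein-coding genes with a TSS peak in 1 knockdown only, and in each list described the 2 members with the largest rank difference in each direction. The 41 gene lists, members and rules were chosen with earlier results of these data known. Alternatives left out each library, took lists of equal length (2531 peaks), peaks with −log10 q of at least 5, ranks by fold enrichment, other windows and other fits.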

Additional observations from a re-analysis of the deposited data

How the results depend on the processing

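With 2 libraries in each group, no exact test could pass a threshold of 0.05. Differences in peak number, covered length, width and reach kept their direction under every alternative run. Lists of equal length fix the peak number and give no value for it. Leaving out a library moved the width difference at common sites between 92 and 241.5 bp. The promoter share difference reversed to −0.0788 percentage points without siAGO2 replicate 1 (−0.0788 to 2.52 over the libraries) and to −0.153 with −log10 q of at least 5. Sites with a width shift numbered 0 to 2 wider in siAGO2 and 0 to 1 in dsLaminB when a library was left out, where a group of 1 was assumed to vary like the other, and 1 wider in siAGO2 with −log10 q of at least 5. Sites whose ranks do not overlap numbered 768 to 1116 higher in siAGO2 and 758 to 1079 in dsLaminB when a library was left out, since 3 libraries overlap less often by construction, and 257 higher in siAGO2 with −log10 q of at least 5, where 1532 sites were common. Genes with a TSS peak in siAGO2 only numbered 98 in lists of equal length and 570 to 2229 without a library. Those in dsLaminB only numbered 41 in lists of equal length, 0 with −log10 q of at least 5, 4 with a window of 1500 bp and 3 to 63 without a library. With the replicate number as a block, limma called 0 sites for rank and 0 for width. Deviations of same-numbered libraries correlated by −0.0986 for ranks and 0.0903 for widths over 2314 sites, so the numbers were not taken to pair the samples. Leaving libraries out of the list medians, and ranking the lists by fold enrichment, were added after the data had been seen.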
